A study of Mus musculus with 6 samples.

Results

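The MCM helicase and origin licensing genes were followed in mouse basal cell carcinoma (BCC) cells that had lost or kept Yap. They were the 10 rows of the deposited expression table whose symbols are Mcm2, Mcm3, Mcm4, Mcm5, Mcm6, Mcm7, Mcm10, Cdt1, Cdc6 and Gmnn, out of 23337 genes. The rows were taken by name, with earlier results of these data known. RNA was sequenced from tumour cells of ear epidermis, taken 6 weeks after tamoxifen that was given at 4 weeks of age. The Yap knockout libraries (n = 3) came from mice of the genotype R26-SmoM2/+ Yapfl/fl K14CreER and the wild-type libraries (n = 3) from mice of the genotype R26-SmoM2/+ K14CreER. Both groups therefore carried the SmoM2 allele, which encodes a Smoothened protein that keeps Hedgehog signalling switched on and drives the tumours, and a tamoxifen-dependent Cre expressed from a keratin 14 promoter. That promoter limits recombination to keratin 14-expressing keratinocytes and their descendants, so any other cell in a sample would keep Yap. The comparison asked how transcripts differ between SmoM2 tumours without and with YAP, the co-activator that works through TEAD factors.

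Licensing is the step of the cell cycle at which a chromosome is made ready for replication. The origin recognition complex binds DNA and, with the ATPase Cdc6 and the loader Cdt1, places rings of the subunits Mcm2 to Mcm7 around it. Those rings stay inactive until S phase, when Cdc45 and the GINS complex join them and Mcm10 helps the active helicase to separate the strands. Geminin, the product of Gmnn, binds Cdt1 after S phase has begun and so prevents a second round of loading. In mammals these genes are known as targets of E2F factors, which raise their transcription as cells leave quiescence, so their transcripts are widely used as a sign of proliferation.

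Short sequences in the promoters of the members are shown here as a description. Because the members are known E2F targets, E2F words in their promoters could be foreseen from the choice of genes. The promoters of the other gene lists were not searched as lists. Whether these words play a part in the members' values was not tested. RefSeq promoter windows (GRCm38.p6, 250 bases before to 50 after the transcription start) were matched for 8 of the 10 members, all except Mcm4 and Gmnn, in 9 windows because Mcm7 has a pair of starts. The E2F words TTTCCCGC, TTTGGCGC, TTTCGCGC and TTTGCCGC, searched on both strands, occurred in 6 of the 8 members (Mcm3, Mcm5, Mcm6, Mcm7, Cdt1 and Cdc6) and in 2.26% of the 32851 windows of all genes. In the stretches printed here, 5′ to 3′ on the gene's strand, capitals mark these words. The first pair are the 250 bases before the RefSeq start of Mcm5 (chr8:75109259-75109508, plus strand) and of Mcm6 (chr1:128359706-128359955, minus strand). The other 3 are 30-base sites of Mcm3 (chr1:20820265-20820294, minus strand), Cdt1 (chr8:122568035-122568064, plus strand) and Cdc6 (chr11:98908002-98908031, plus strand).
Mcm5: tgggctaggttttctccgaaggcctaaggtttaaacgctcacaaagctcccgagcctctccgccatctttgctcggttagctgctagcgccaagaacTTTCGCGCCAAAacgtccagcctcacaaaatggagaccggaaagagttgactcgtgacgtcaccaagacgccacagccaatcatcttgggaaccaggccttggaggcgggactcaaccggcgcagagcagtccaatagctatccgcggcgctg
Mcm6: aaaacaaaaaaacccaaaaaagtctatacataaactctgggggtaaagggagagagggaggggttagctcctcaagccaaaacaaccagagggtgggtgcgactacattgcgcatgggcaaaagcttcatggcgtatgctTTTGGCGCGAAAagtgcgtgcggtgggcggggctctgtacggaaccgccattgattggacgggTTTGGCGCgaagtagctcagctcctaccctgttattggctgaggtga
Mcm3: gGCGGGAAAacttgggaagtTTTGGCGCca
Cdt1: gggaactaccttTTTGGCGCcatggcgcaa
Cdc6: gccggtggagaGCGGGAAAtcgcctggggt

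Positions here count from the RefSeq start. GENCODE M21 begins Mcm5 at 75109569 and Mcm6 at 128359664, in both cases downstream of the RefSeq start. It begins Cdc6 at 98907801, so the Cdc6 site lies inside the GENCODE gene. The printed sites of Mcm3 (bases 19 to 48) and Cdt1 (bases 21 to 50) lie after the RefSeq start and also inside the GENCODE genes. In Mcm5 the capitals hold TTTCGCGC on the gene's strand (bases −153 to −146) overlapping TTTGGCGC on the other strand (−149 to −142). The upstream run of Mcm6 pairs TTTGGCGC (−110 to −103) with TTTCGCGC on the other strand (−106 to −99) in the same way, and a further TTTGGCGC lies at −47 to −40. The CCAAT word, on either strand, was in 6 of the 8 members (Mcm2, Mcm3, Mcm5, Mcm6, Mcm7 and Mcm10) and in 37.4% of all windows. The TEAD word GGAATG was in 1 of the 8, Mcm3, and in 14.7% of all windows, and the AP-1 words TGACTCA and TGAGTCA were in 0 of the 8 and in 5.20% of all windows. The cell cycle word TTTGAA was in 1 of the 8, Mcm2, and in 17.9% of all windows. A match says that these letters are present and not that a factor binds there.

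Reads assigned to genes numbered 15572640 to 25179110 in the knockout libraries and 15405490 to 25260431 in the wild-type libraries. Yap1 itself had 591, 773 and 1764 normalized counts in knockout libraries 1 to 3, against 5765, 6004 and 5573 in wild-type libraries 1 to 3, so the deleted gene was lower in each library labelled knockout and knockout library 3 kept the most. A normalized count is the number of reads of a gene divided by one size factor per library. Library 3 of each group carries a label code beginning with DM24 and libraries 1 and 2 a code beginning with DM22. The DM24 libraries also had the lowest depth, and Xist, the X-inactivation transcript, stood at 58654 in knockout library 3 and 59594 in wild-type library 3, against 8.62 to 15.1 in the other 4. The codes, the depth and the sex of the mice cannot be told apart in these libraries, and values within same-numbered pairs are given beside the results. For the DM22 libraries this pairing rests on the replicate numbers alone. The basal keratinocyte and BCC markers were present in all libraries, with Krt5, a basal keratin, at 251982 to 279823 in knockout and 223225 to 347189 in wild type. The summed level of the 9 markers in that list overlapped between the groups (473215 to 524142 in knockout, 452412 to 621051 in wild type). Krt5 and Krt14 make up most of that sum. By limma log2 difference, knockout minus wild type, 6 of the 9 lay below 0 and 3 above. Itgb4 (−0.24, SE 0.09) lay lower without overlap, as did 5.87% of all tested genes. Ptch1 (−0.44, SE 0.23) overlapped. DESeq2 with a term for the DM22 and DM24 codes called Ptch1 lower (adjusted p = 0.00578), as it did 1.46% of all tested genes. Of 7 leukocyte genes, Cd74, the invariant chain of antigen presentation, had 268, 523 and 353 normalized counts in knockout and 419, 325 and 75.4 in wild type, while the other 6, Ptprc and Cd3e included, had at most 7.59. Of 5 endothelial genes, Egfl7 had 64.5 to 97.3 in knockout and 84.5 to 116 in wild type, and Pecam1 had 45.5 to 72.1 in knockout and 25.9 to 83.2 in wild type. The other 3 endothelial genes had at most 8.85, with Emcn at 0 reads in all 6 libraries.

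Transcripts of the 6 helicase subunits had means 16.9% to 23.6% lower in the knockout tumours than in wild type, and for 5 of the 6 each knockout library lay below each wild-type library. The separation was the same for 9 of the 10 licensing genes, all except Mcm4. Among the 13671 genes tested (mean of 10 normalized counts or more), 5.87% lay lower in the knockout without overlap. In bulk RNA, fewer cells in cycle and less of a transcript per cell cannot be told apart. Summed over the 6 subunits, the knockout libraries 1 to 3 had 17364, 16236 and 15741 normalized counts and the wild-type libraries 21597, 21907 and 18950, so that the knockout mean was 79.0% of the wild-type mean.

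Mcm6, the subunit with the largest difference, lies on chromosome 1 (128331590 to 128359664, minus strand, GRCm38). It had 3739, 3626 and 3449 normalized counts in knockout libraries 1 to 3, against 4877, 4881 and 4395 in wild-type libraries 1 to 3. Each knockout library was below each wild-type library, and library 3 was the lowest of its group in both. Mcm2 (chromosome 6, 88883474 to 88898780, minus strand), the subunit that also holds parental histones, had 2711, 2363 and 2311 in knockout and 3315, 3411 and 2818 in wild type. Mcm5 (chromosome 8, 75109569 to 75128439, plus strand), which forms with Mcm2 the gate through which DNA enters the ring, had 2881, 2865 and 2902 in knockout and 3615, 3930 and 3324 in wild type. The knockout values of Mcm5 were close together, with an SD of 18.7 normalized counts and a coefficient of variation of 0.647%, against an SD of 303 and a coefficient of 8.36% in wild type. The knockout coefficient is smaller than counting error alone would give on average at 2295 to 4300 reads per library. It is therefore not a measure of the spread between tumours, and the difference in spread was not tested.

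Mcm3 (chromosome 1, 20802968 to 20820312, minus strand), the partner of Mcm5 in the ring, had 2175, 2094 and 2214 normalized counts in knockout and 2753, 2689 and 2560 in wild type. Mcm7 (chromosome 5, 138164583 to 138172422, minus strand) had 2510, 2309 and 2061 in knockout and 2941, 2815 and 2524 in wild type. Its groups were separate by a narrow margin, since knockout library 1 lay just below wild-type library 3. Mcm4 (chromosome 16, 15623897 to 15637400, minus strand), which with Mcm6 and Mcm7 forms the subcomplex that has helicase activity on its own in vitro, had 3347, 2980 and 2803 in knockout and 4097, 4181 and 3328 in wild type. Knockout library 1 of Mcm4 lay above wild-type library 3, so its groups overlapped, although within each same-numbered pair the knockout value was the lower one. Reads behind the subunits ran from 1630 to 5801 per gene and library, which leaves little counting error at this level.

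**Figure D1:**
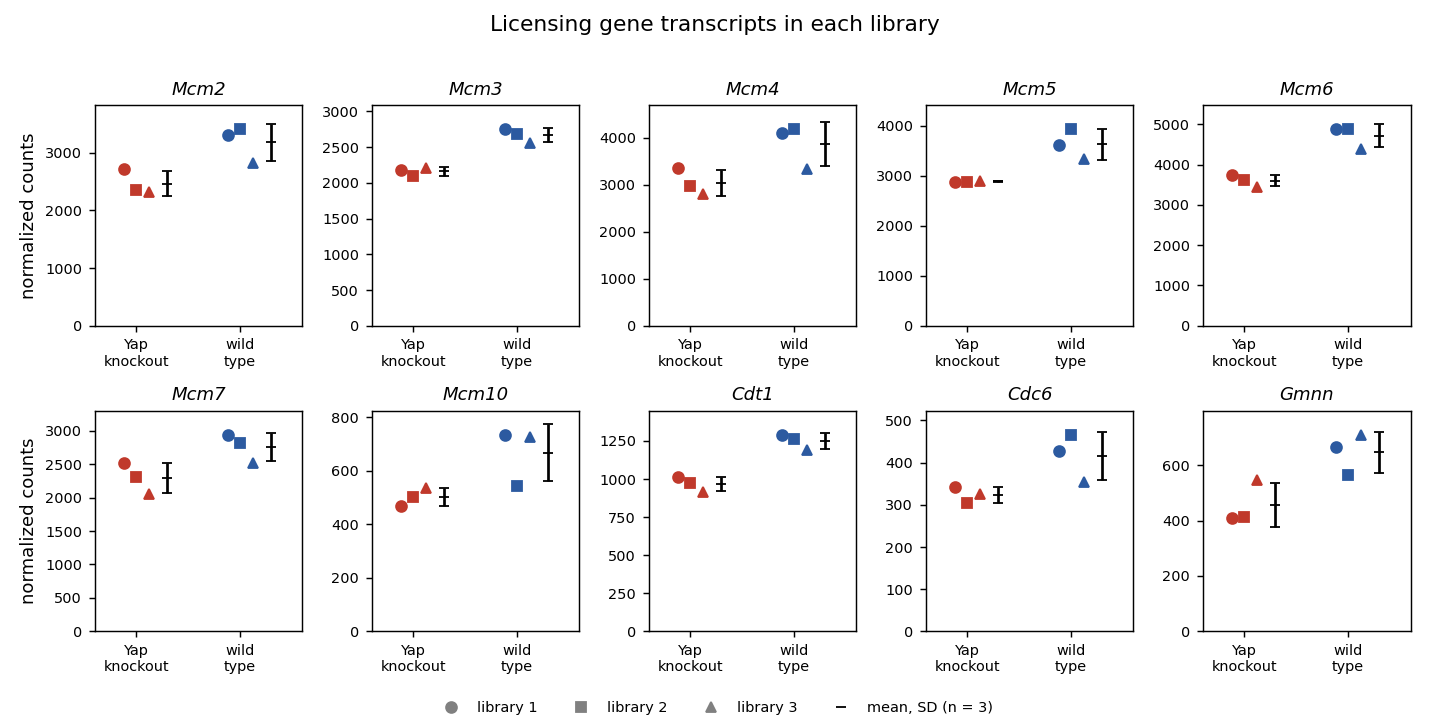
Normalized counts of the 10 licensing genes (y axis, starting at 0) in the Yap knockout and wild-type libraries, with a symbol for each library and the mean with its SD (n = 3) beside each group. For 9 genes the knockout points lie below all wild-type points, and for Mcm4 knockout library 1 (3347) lies above wild-type library 3 (3328).

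By the test across all genes, limma on log2(normalized count + 1) with Benjamini-Hochberg adjustment at 0.05, 0 of the 10 members passed. Nor did any other gene, since limma called 0 of 13671 (0.0%), with 759 (5.55%) at an unadjusted p under 0.05, and edgeR called 0, with 760 (5.56%). The deleted gene Yap1, with a limma log2 difference of −2.63, did not pass either (limma adjusted p = 0.517, edgeR adjusted p = 0.655). A gene that did not pass these tests is therefore not shown to be unchanged. All 10 members were among the 410 genes lower at an unadjusted p under 0.05, which are 3.0% of the genes tested. The limma log2 differences, knockout minus wild type, were −0.39 for Mcm6 (SE 0.07, adjusted p = 0.667), −0.37 for Mcm2 (SE 0.11, adjusted p = 0.722) and −0.34 for Mcm4 (SE 0.12, adjusted p = 0.826). They were −0.33 for Mcm5 (SE 0.08, adjusted p = 0.722), −0.30 for Mcm3 (SE 0.06, adjusted p = 0.667) and −0.27 for Mcm7 (SE 0.10, adjusted p = 0.885). DESeq2 on the whole reads recovered from the table called 3 members lower, Mcm6 (adjusted p = 0.00276), Mcm3 (adjusted p = 0.0179) and Cdt1 (adjusted p = 0.0227), among 45 genes lower or 0.329% of those tested (0.505% in either direction). With the replicate number as a block it called 1 member, Mcm6 (adjusted p = 0.0126), among 112 lower genes (0.819%, and 1.24% in either direction). With the code series as a term it called 7, among 199 lower genes (1.46%, and 2.22% in either direction), namely Mcm2, Mcm3, Mcm4, Mcm5, Mcm6, Cdt1 and Gmnn. Mcm7 (adjusted p = 0.0532), Mcm10 (adjusted p = 0.222) and Cdc6 (adjusted p = 0.333) did not pass DESeq2 in that design.

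The DESeq2 calls without a term changed when 1 library was left out. The number of members called lower was 1 without knockout library 1 (0.249% of all genes were called lower), 0 without knockout library 2 (0.124%) and 4 without knockout library 3 (1.08%). Among the wild-type libraries, leaving out library 1 gave 0 members (0.0878%), leaving out library 2 gave 2 (0.841%) and leaving out library 3 gave 6 (0.797%). In the 4 DM22 libraries alone DESeq2 called 2 members, Mcm5 and Mcm6 (1.07%). Mcm6 was called in 4 of the 6 fits without 1 library, Mcm3 and Cdt1 in 2 each, and Mcm7 and Cdc6 in 0. The direction of each member stayed below 0 in each of the 6 limma fits without 1 library.

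The shift was nearly even over the complex. The 6 limma log2 differences had a median of −0.33 and an SD of 0.04, and they ran over 0.12 from Mcm6 to Mcm7. The SE of a single subunit (0.06 to 0.12) holds spread between libraries that the subunits shared. It is therefore not the error of that range, which was not tested. The median over all tested genes was −0.003. Within the pairs, the subunits lay between −0.38 and −0.23 in pair 1, between −0.53 and −0.29 in pair 2 and between −0.35 and −0.20 in pair 3, with medians of −0.31, −0.44 and −0.27. All 6 subunits were below 0 in each of the 3 pairs, and 17.3% of all tested genes were lower in the knockout in all 3 pairs. Mcm7 had the smallest difference in pairs 1 and 2 and Mcm5 in pair 3, whereas the largest was that of Mcm6 in pairs 1 and 3 and of Mcm2 in pair 2. Pair 3, which includes the knockout library with the most residual Yap1, had the smallest median, and whether residual Yap1 plays a part in this was not tested. A term for the difference between the code series in the effect of genotype passed limma for 0 of the 10 members (adjusted p = 0.867 to 0.988), with 2 residual degrees of freedom among the libraries.

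**Figure D2:**
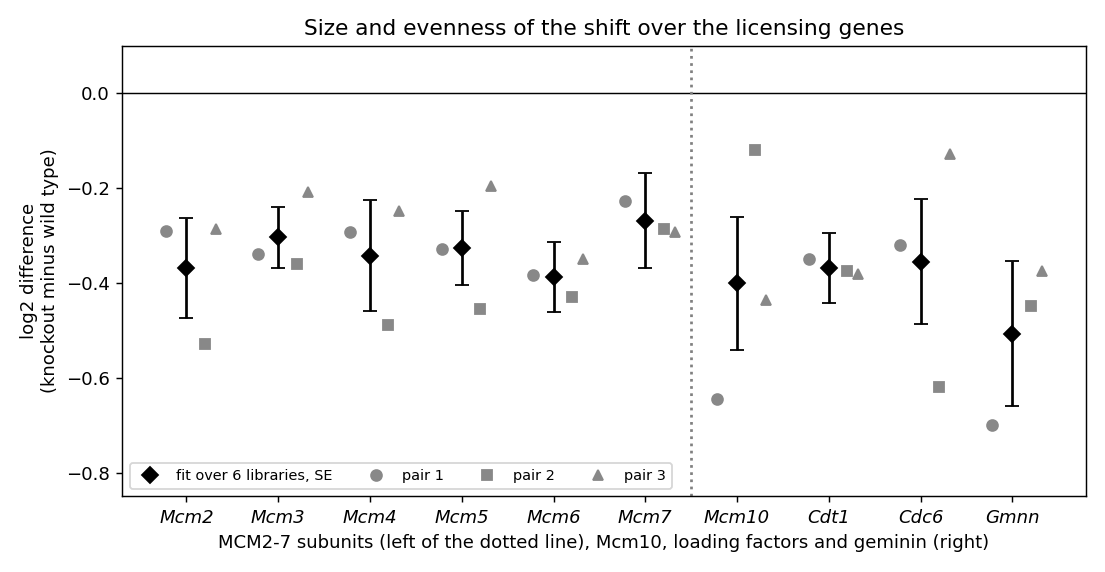
Log2 difference of each licensing gene, knockout minus wild type (y axis), as fitted over the 6 libraries with its SE (diamonds) and within same-numbered pairs (grey symbols). The 6 subunits on the left lie between −0.39 and −0.27, while the pairs of Mcm10, Cdc6 and Gmnn are spread more widely.

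The make-up of the complex at the transcript level was close to equal between the groups. As a share of the summed level per kb of the 6 subunits, Mcm6 took 17.4% ± 0.33 in knockout and 18.1% ± 0.36 in wild type (SD, n = 3), without overlap. Mcm7 took 16.3% ± 0.86 in knockout and 15.6% ± 0.44 in wild type (SD, n = 3), with overlap, as did the other 4 subunits. These shares were not tested. The level per kb of the highest subunit was 1.26 ± 0.04 times that of the lowest in knockout and 1.26 ± 0.05 times in wild type (SD, n = 3).

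Among the proteins that load and control the helicase, Cdt1 had the most even difference and geminin the largest. Cdt1 (chromosome 8, 122568015 to 122573554, plus strand), the loader that is destroyed once S phase begins, had 1013, 974 and 917 normalized counts in knockout libraries 1 to 3. It had 1291, 1264 and 1194 in wild-type libraries 1 to 3. The groups were well apart, and the log2 differences of the 3 pairs were −0.35, −0.37 and −0.38, with a limma difference of −0.37 (SE 0.07, adjusted p = 0.667). Cdc6 (chromosome 11, 98907801 to 98923940, plus strand), the ATPase that closes the loading complex, had 342, 303 and 325 in knockout and 428, 466 and 355 in wild type. Its groups did not overlap, but its pairs ran from −0.62 in pair 2 to −0.13 in pair 3, around a limma difference of −0.36 (SE 0.13, adjusted p = 0.885).

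Gmnn (chromosome 13, 24751845 to 24761923, minus strand) had 408, 414 and 548 normalized counts in knockout and 664, 565 and 710 in wild type. Library 3 was the highest of each group, and knockout library 3 came close to wild-type library 2. The limma difference of Gmnn was −0.51 (SE 0.15, adjusted p = 0.75), with −0.70, −0.45 and −0.37 in pairs 1 to 3. Mcm10 (chromosome 2, 4989714 to 5012791, minus strand), which acts when the loaded helicase is switched on, had 470, 501 and 536 in knockout and 736, 545 and 726 in wild type. Wild-type library 2 lay only just above the knockout libraries, so that the pairs of Mcm10 were −0.65, −0.12 and −0.44, around a limma difference of −0.40 (SE 0.14, adjusted p = 0.849). The ratio of Cdt1 to Gmnn per kb, loader to inhibitor, was 1.28, 1.21 and 0.862 in knockout and 1.001, 1.15 and 0.866 in wild type, and the groups overlapped.

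Cdt1 and Cdc6 followed the subunits from library to library, and Mcm10 and Gmnn did so less closely. Across the 6 libraries the Pearson correlation of log2 values with the mean of the subunits was 0.98 for Cdt1, 0.96 for Cdc6, 0.59 for Gmnn and 0.57 for Mcm10. For the subunits, against the mean of the other 5, it was 0.92 to 0.99. These values describe 6 libraries that fall into 2 genotypes and 2 code series, so the points are not independent. In a fit that held genotype, the DM24 libraries lay below the DM22 libraries for each of the 6 subunits (log2 differences −0.24 to −0.02), and above them for Gmnn (0.31) and Mcm10 (0.17). By limma 0 of the 10 members passed for the code series (adjusted p = 0.0974 to 0.875).

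Per length of transcript, the 6 subunits formed the top tier of the licensing genes, Cdt1 and Gmnn the middle one, and Mcm10 and Cdc6 the lowest. Levels per kb, taken over the longest protein-coding transcript of each gene in GENCODE M21, averaged 853 ± 5.52 for Mcm5, 848 ± 77.3 for Mcm4, 828 ± 33.5 for Mcm6, 774 ± 76.0 for Mcm7, 730 ± 64.5 for Mcm2 and 713 ± 20.2 for Mcm3 in knockout (SD, n = 3). In wild type they averaged 1083 ± 64.2 for Mcm6, 1078 ± 131 for Mcm4, 1072 ± 89.5 for Mcm5, 944 ± 94.3 for Mcm2, 932 ± 72.1 for Mcm7 and 880 ± 32.5 for Mcm3 (SD, n = 3). Neighbouring subunits in these orders overlapped over the libraries of a group. Within single libraries, Mcm6 lay above Mcm7 and Mcm7 above Mcm2 in all 3 knockout libraries, and Mcm5 lay above Mcm2 and Mcm7 above Mcm3 in all 3 wild-type libraries, while the other neighbouring subunits changed places in 1 or 2 libraries. Cdt1 had 442 ± 22.2 per kb in knockout and 571 ± 22.9 in wild type, and Gmnn had 405 ± 69.9 in knockout and 574 ± 65.8 in wild type, overlapping Cdt1 in both (SD, n = 3). Mcm10 had 103 ± 6.80 per kb in knockout and 137 ± 22.1 in wild type, and Cdc6 had 70.1 ± 4.24 in knockout and 90.3 ± 12.2 in wild type (SD, n = 3). The steps from the subunits to the middle tier, from that tier to Mcm10 and from Mcm10 to Cdc6 held without overlap in both groups.

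**Figure D3:**
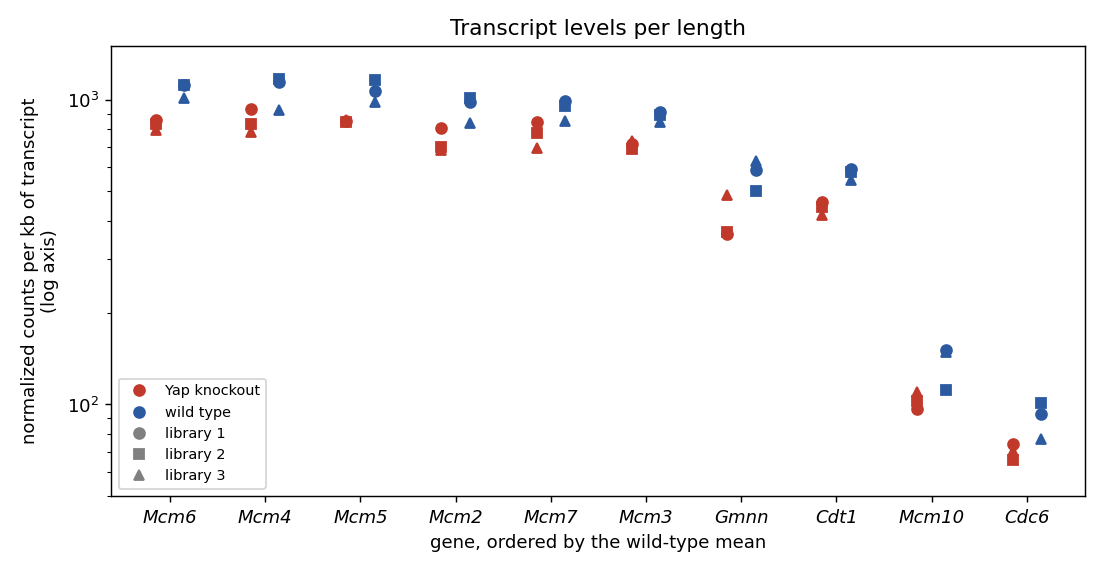
Normalized counts per kb of transcript (log axis) of the 10 licensing genes, ordered by the wild-type mean, with knockout libraries left of wild-type libraries for each gene. The subunits lie between 686 and 933 in knockout and between 836 and 1165 in wild type, and Cdc6 lies lowest at 65.8 to 74.2 in knockout and 77.0 to 101 in wild type.

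The genes of the recognition complex, which receives the helicase, had values closer to 0. Of 7 origin recognition genes, 5 had limma differences below 0 (51.0% of all tested genes), with a median of −0.12. The pair medians were −0.05, −0.03 and −0.03, and 1 gene lay lower without overlap (5.87% of all tested genes). The exception was Orc1, the subunit whose level is known to change over the human cell cycle, with 284, 228 and 290 normalized counts in knockout and 324, 335 and 359 in wild type (log2 difference −0.35, SE 0.13). Lrwd1, an ORC-associated protein, had −0.17 (SE 0.11), and the core subunits Orc2 (−0.04), Orc3 (0.02), Orc4 (0.08), Orc5 (−0.13) and Orc6 (−0.12) all overlapped between the groups. Per library, the mean log2 level of the 6 helicase subunits minus that of the 7 recognition genes was 1.69, 1.71 and 1.58 in knockout and 1.95, 1.96 and 1.77 in wild type, without overlap. The same quantity against the helicase activation genes was 2.17, 2.19 and 1.96 in knockout and 2.23, 2.27 and 2.05 in wild type, with overlap. Against the fork genes it was 1.35, 1.31 and 1.19 in knockout and 1.39, 1.43 and 1.24 in wild type, and against the G2 and mitosis genes 1.34, 1.13 and 0.64 in knockout and 1.181, 1.26 and 0.81 in wild type, both with overlap. None of these 4 quantities was tested. The summed level of the 7 genes was 6480 to 6849 normalized counts in knockout and 6909 to 6967 in wild type, which is also without overlap. Of the 7 genes, 0 passed limma, edgeR or DESeq2.

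The factors that turn the loaded ring into a working helicase had a smaller median than the subunits. All 13 genes of that list had limma differences below 0, as had 51.0% of all tested genes. Their median was −0.23, or −0.23, −0.39 and −0.14 in pairs 1 to 3. The groups were apart for 7 of the 13, against 5.87% of all tested genes lower without overlap. Limma and edgeR passed 0 of them. DESeq2 with no added term called 1 lower (0.329% of all tested genes), Wdhd1, the replisome adaptor also named AND-1. Wdhd1 had 1118, 964 and 1170 normalized counts in knockout and 1580, 1499 and 1692 in wild type, a log2 difference of −0.56 (SE 0.10, DESeq2 adjusted p = 0.00378, and 0.00145 with the block). Gins2, a GINS subunit, had −0.43 (SE 0.19) with overlapping groups. The 3 genes next in size were named after their values were seen and were apart between the groups: Gins1 (−0.37, SE 0.10), Ticrr, the firing factor also called treslin (−0.32, SE 0.10), and Cdc45 (−0.29, SE 0.11).

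The list of MCM paralogs and the MCM binding protein had values between −0.48 and −0.01, and 0 of its 4 genes passed limma, edgeR or DESeq2. Mcm8, which works with Mcm9 in homologous recombination, had 329, 321 and 348 normalized counts in knockout and 506, 425 and 359 in wild type (log2 difference −0.36, SE 0.14). Mcmdc2, a meiotic relative, had −0.48 (SE 0.51) at only 5.35 to 16.9 normalized counts. Mcmbp, the protein that binds and protects newly made MCM subunits, had 2624, 2571 and 2939 in knockout and 2815, 2739 and 2638 in wild type, a difference of −0.01 (SE 0.08).

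Genes for the turnover of Cdt1 and geminin had a median of −0.09 over the 8 that were tested, of 10 in the list, and 0 passed limma, edgeR or DESeq2. The largest differences were those of Dtl (−0.31, SE 0.09), the substrate receptor that marks Cdt1 for destruction at the fork, and Fbxo5 (−0.21, SE 0.08), the inhibitor of the ubiquitin ligase that degrades geminin. Neither overlapped between the groups, and 5.87% of all tested genes lay lower without overlap. Among 18 E2F, RB and MuvB genes, 12 lay below 0 (51.0% of all tested genes) with a median of −0.11. Of the 18, 0 passed limma, edgeR or DESeq2. Mybl2, a MuvB partner at mitotic promoters, had −0.47 (SE 0.19) and E2f1, an activator of licensing genes, had 635, 556 and 551 normalized counts in knockout and 721, 850 and 704 in wild type (−0.38, SE 0.11). Lower without overlap were 4 of the 18, against 5.87% of all tested genes. E2f3, another activator of the family, was the 1 gene of the list that lay higher without overlap. E2f3 had 679, 745 and 713 in knockout and 622, 527 and 629 in wild type (0.27, SE 0.10). It was named after its values were seen. Among the 13671 tested genes, 1498 lay without overlap in either direction, so a single such gene in a list is not unusual.

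**Figure D4:**
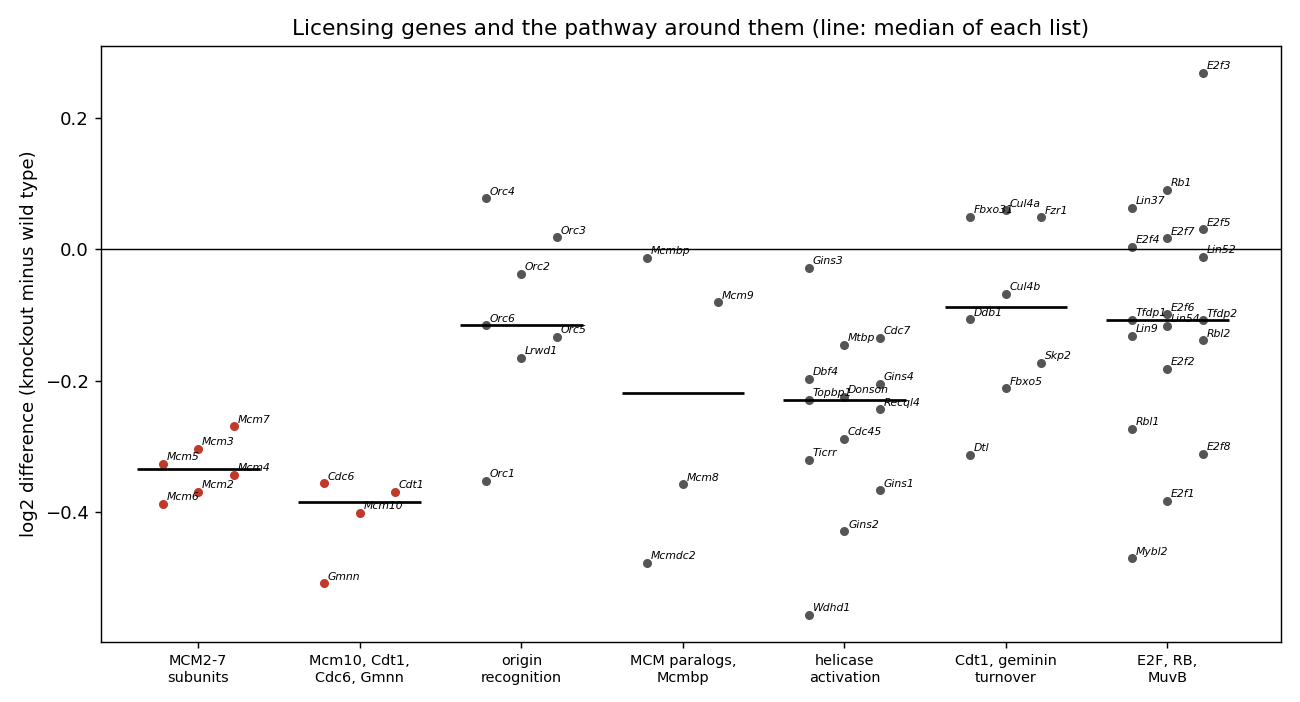
Limma log2 difference, knockout minus wild type (y axis), of each tested gene in the licensing group (red) and in 5 lists of the pathway around it (grey), with the median of each list as a line. The 6 subunits lie between −0.39 and −0.27, whereas Orc2, Orc3 and Orc4 lie between −0.04 and 0.08.

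Among the wider cell cycle lists, the replication fork genes were the ones most often apart between the groups. All 22 fork and nucleotide genes lay below 0 with a median of −0.26, and 14 lay lower without overlap. Of all tested genes, 51.0% lay below 0 and 5.87% lay lower without overlap. The number that DESeq2 called lower was 2 with no added term, 1 under the block and 5 when the code series was a term. The shares of all tested genes called lower in these fits were 0.329%, 0.819% and 1.46%. Limma and edgeR called 0 of the 22. The largest difference of the list was that of Rrm2, a ribonucleotide reductase subunit, at −0.47 (SE 0.16). The 20 G2 and mitosis genes also all lay below 0, with a median of −0.28, but 2 did not overlap and the pair medians were −0.46, −0.31 and −0.09. The cyclins Ccna2 (−0.38, SE 0.17) and Ccnb2 (−0.36, SE 0.19) had the largest differences of that list. In the fit that held genotype, the median of the G2 and mitosis genes between DM24 and DM22 libraries was 0.36, against −0.16 for the 6 helicase subunits. Of the 14 G1 cyclin, kinase and inhibitor genes, 13 lay below 0 with a median of −0.23, and Cdkn2a (−0.72, SE 0.75) and Cdkn1c (−0.46, SE 0.54), both inhibitors, had the largest differences. In both the G1 and the G2 and mitosis list, 0 genes passed limma, edgeR or the DESeq2 fit with no added term, and 1 passed DESeq2 with the code series.

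Genes known to respond to tissue dissociation, and markers of other cell types, also differed among the same libraries. The 16 tissue dissociation response genes all lay below 0, as did 51.0% of all tested genes. Their median was −0.63, or −0.29, −0.55 and −1.18 in pairs 1 to 3, and they were led by Hspa8 (−1.37, SE 0.44), a chaperone, and Egr1 (−0.89, SE 0.92), an immediate early factor. Their summed level was 145679 to 555692 normalized counts in knockout and 293601 to 844048 in wild type, with library 3 lowest in both groups. These ranges overlap over all libraries, but the sum was lower in the knockout in each pair: 555692 in knockout and 741936 in wild type in pair 1, 499414 in knockout and 844048 in wild type in pair 2, and 145679 in knockout and 293601 in wild type in pair 3. Of the 16 genes DESeq2 called 0 with no added term, 7 under the block and 8 when the code series was a term. The shares of all tested genes called lower in these fits were 0.329%, 0.819% and 1.46%. The summed levels of the other marker lists all overlapped between the groups. The 6 suprabasal keratinocyte genes summed to 24848 to 103378 in knockout and 28380 to 45749 in wild type, with knockout library 3 the highest. The 7 leukocyte genes, nearly all of it Cd74, summed to 270 to 527 in knockout and 86 to 426 in wild type. The 7 fibroblast genes summed to 1990 to 7619 in knockout and 3406 to 10402 in wild type. Most of the fibroblast sum was Dcn, with 1127 to 7060 in knockout and 2193 to 9253 in wild type. Dcn and Thy1 were lowest in library 3 of both groups. Col1a1, Col1a2, Col3a1 and Lum were highest there in both groups, and Pdgfra in knockout alone. Endothelial genes (5) summed to 134 to 153 in knockout and 119 to 175 in wild type, melanocyte genes (6) to 379 to 735 in knockout and 572 to 617 in wild type, and sebocyte genes (6) to 18545 to 20363 in knockout and 16297 to 20094 in wild type. Fasn and Scd1 made up most of the sebocyte sum. Whether handling or genotype lies behind the values of the dissociation list was not tested. The part of these lists in the values of the licensing genes was not tested either.

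Genes that share a start region or exons with a member had differences near 0. Prkdc, the DNA-dependent protein kinase gene that starts 466 bases from Mcm4 on the other strand, had 1361, 1088 and 1209 normalized counts in knockout and 1285, 1186 and 1340 in wild type (log2 difference −0.06, SE 0.10). Ap4m1, an adaptor complex gene on the other strand whose exons overlap those of Mcm7 by 321 bases, had 0.06 (SE 0.14), and Cops6, a signalosome subunit with 64 shared bases, had −0.06 (SE 0.07). The library kit does not mark strand, so reads in the shared bases cannot be assigned with certainty. The Mcm7 gene also hosts the miRNA genes Mir25, Mir93 and Mir106b, whose rows held few or no reads.

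Outside the members, the 8 genes with the highest Pearson correlation to the mean profile of the 6 subunits over the 6 libraries were Hist1h1b, C1s, Ermap, Cyp2s1, Cdca7l, Rabac1, Cul2 and Prkci (r = 0.982 to 0.995). Hist1h1b encodes a linker histone and Cdca7l a cell division cycle-associated protein, while C1s is a complement protease and Prkci an atypical protein kinase C. Hist1h1b had 27.6, 19.0 and 19.0 normalized counts in knockout and 55.5, 58.4 and 33.8 in wild type, and Cdca7l had 865, 804 and 761 in knockout and 1284, 1197 and 1059 in wild type. All 8 genes lay lower in each knockout library than in each wild-type library, as the profile itself does.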

How the data were processed

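RNA came from Qiagen RNeasy Plus columns and went into Illumina TruSeq RNA v2 libraries, per the labels' protocols; this kit does not mark strand. STAR 2.5 and DESeq2 1.18.1 with build mm10 (GRCm38) are named in the submitters' processing notes. Not given in the sources used here are the counting tool, the annotation and any filters. The authors deposited a signal, each gene's read count over a size factor of its library. In every library 100% of the values were whole multiples of a single step (tolerance 0.001 reads), so the whole reads could be recovered. A count of 0 reads allows up to 3, or 2.47 to 3.90 normalized counts by library, for counting error only. The labels do not say whether each library came from its own animal, so p-values measure the spread between libraries.

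The 13671 genes whose mean reached 10 normalized counts were tested with limma 3.58.1 in R 4.3.3, its prior robust and following the mean level, on log2(normalized count + 1), a scale that understates differences of low genes. It compared 3 knockout with 3 wild-type libraries, with no covariate, two-sided, and Benjamini-Hochberg adjustment at 0.05. As alternatives, DESeq2 1.42.0 and the quasi-likelihood test of edgeR 4.0.16, with TMM scaling, were run on the recovered reads. Both groups use replicate numbers 1 to 3. Same-numbered libraries deviated together from their group means (correlations 0.333, 0.327 and 0.694, each above 0.1), so the numbers were taken to pair them. For knockout library 1 the value with wild-type library 2 was higher (0.505), so the pairing of the DM22 libraries rests on the labels. The fits were tried on simulated data whose changes were larger than those of the helicase subunits. Recovery of changes of the size seen in the subunits was therefore not examined.

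The members and the 18 gene lists were chosen with earlier results of these data known. The lists held 182 genes, of which 180 were matched, 4 through an older symbol (Ticrr, Mcmdc2, Gmnc and Mcidas). Named were all members, Yap1, from each list up to 4 genes past limma or else the 2 with the largest difference, the 8 genes most correlated with the subunits, and genes overlapping a member or starting within 1000 bases of it; 1 gene that this rule names is not reported here. Coordinates are from GENCODE M21 (GRCm38) and promoter sequences from RefSeq (GRCm38.p6).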

Additional observations from a re-analysis of the deposited data

Results flagged for a closer look

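Cops6, which overlaps Mcm7, had pair differences of −0.15 and −0.10 in the DM22 libraries and 0.0656 in the DM24 libraries (log2, knockout minus wild type), opposite signs in the 2 code series. In the limma fit with a term for that difference, 0 of 13671 genes passed after adjustment, with 748 at an unadjusted p under 0.05, and edgeR was not run with that term. The 10 licensing genes lay below 0 in both code series.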

How the results depend on the processing

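The licensing genes kept a log2 difference below 0 under each alternative run. The median (−0.41 to −0.29) and spread (0.11 to 0.16) of the 6 subunits moved by less than their SD over the pairs (0.09 and 0.05) wherever they were recomputed. Limma and edgeR called 0 members under each setting tried, including the replicate block (limma adjusted p = 0.264 to 0.512). The counts moved with DESeq2. It called 69 genes and 3 members without a term, 169 genes and 1 member with the replicate block, 303 genes and 7 members with the code series, and 268 genes and 2 members in the 4 DM22 libraries alone. In these 4 libraries limma called 2 genes and 0 members. DESeq2 fits chosen after seeing the data, which include the DM22 one, called 53, 26 and 230 genes without knockout libraries 1, 2 and 3 and 24, 223 and 235 without wild-type libraries 1, 2 and 3, with 0 to 6 members. Limma without 1 library called 0 to 1 genes, the 1 in the fit without knockout library 3, and the cause was not tested.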
